A study of Mus musculus with 16 samples.

Results

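Transcription factors that mark or maintain undifferentiated spermatogonia were followed by sequencing of polyadenylated RNA in GS (germline stem) cells of the mouse, which grow out of spermatogonial stem cells in culture. The 8 genes were Zbtb16, Sall4, Foxo1, Taf4b, Pou5f1, Utf1, Sox3 and Foxc2. They were chosen by symbol from a deposited table of 21924 protein-coding genes, and all 8 were found there and passed the filter on low values (at least 1 CPM in at least 2 libraries). The 16 libraries formed 8 groups of 2. DBA/2 wild type made up 1 group at 1% and 1 at 20% oxygen. A line of mixed 129 x C57BL/6 background, the Hif1a line, was labelled Hif1a KO or Hif1a wild type, and either label had 1 group at 1% and 1 at 20% oxygen. The cells labelled Hif1a KO had received AxCANCre, an adenovirus that carries Cre recombinase, on the day that low oxygen began. C57BL/6 cells labelled Top1mt KO, and C57BL/6 wild type cells beside them, were kept at 1% oxygen only. All cultures stood on mouse embryonic fibroblasts and received GDNF and FGF2, so that each library can hold feeder RNA. Low oxygen lasted 2 days per the series text, while the names of the Hif1a-line libraries at 1% carry a mark of 6d and those of the C57BL/6 libraries a mark of 2d, whose meaning is not given. The labels do not say whether a line came from 1 animal or several, or whether any virus was added to the wild type cells.

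Spermatogonial stem cells sit among the undifferentiated spermatogonia of the testis, which either renew themselves or commit to differentiation towards meiosis. GDNF from somatic cells acts through the receptor pair GFRA1 and RET and keeps a set of transcription factors active, and the same factor sustains GS cells in culture. ZBTB16 (PLZF) and SALL4 are zinc finger proteins that bind each other and act as repressors or activators of spermatogonial genes. FOXO1 and FOXC2 are forkhead factors, TAF4B is a germ cell enriched subunit of the general transcription factor TFIID, and POU5F1 (OCT4) and UTF1 are factors shared with pluripotent cells. SOX3, an HMG box factor encoded on the X chromosome, marks undifferentiated spermatogonia that are committing to differentiate.

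The study lowered oxygen, so the stretch just upstream of the RefSeq start was searched for the core of the element that hypoxia-inducible factors bind. RefSeq promoter sequence on GRCm38.p6 was used for 3 of the 8 genes, Foxo1, Pou5f1 and Utf1. The other genes were not searched, and their absence here does not mean that they have no RefSeq promoter sequence. The 250 bases before the RefSeq start are printed 5′ to 3′ on the strand of the gene, which is the plus strand for all 3. All 3 are shown, so that the windows can be compared beside the responses of these genes to oxygen given below. Capitals mark the hypoxia response core, searched as ACGTG or GCGTG on both strands, and the GC box, searched as GGGCGG on both strands. The windows are chr17:35505782-35506031 for Pou5f1, chr7:139943606-139943855 for Utf1 and chr3:52268087-52268336 for Foxo1.
Pou5f1: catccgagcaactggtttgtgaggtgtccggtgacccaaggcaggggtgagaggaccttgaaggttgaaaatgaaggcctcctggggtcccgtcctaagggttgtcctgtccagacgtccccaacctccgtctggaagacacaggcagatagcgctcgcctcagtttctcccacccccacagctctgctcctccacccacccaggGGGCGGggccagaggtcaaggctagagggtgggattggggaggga
Utf1: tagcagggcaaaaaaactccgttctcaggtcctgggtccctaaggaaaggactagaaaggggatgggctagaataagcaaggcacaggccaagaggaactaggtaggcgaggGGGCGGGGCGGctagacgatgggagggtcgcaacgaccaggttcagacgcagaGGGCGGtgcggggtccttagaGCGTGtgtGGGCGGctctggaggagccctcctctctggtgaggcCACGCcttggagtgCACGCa
Foxo1: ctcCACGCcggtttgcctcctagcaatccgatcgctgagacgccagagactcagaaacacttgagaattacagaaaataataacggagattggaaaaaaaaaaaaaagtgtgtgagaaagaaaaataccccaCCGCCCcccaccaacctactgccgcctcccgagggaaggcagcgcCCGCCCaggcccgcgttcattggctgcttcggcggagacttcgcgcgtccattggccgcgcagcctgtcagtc
The Utf1 window held 3 hypoxia response cores and 4 GC boxes, 2 of which overlapped each other. In the GENCODE annotation Utf1 starts earlier, at chr7:139943789, so that by this annotation all 3 cores lie inside the gene and not upstream of it. The end of the printed Pou5f1 window also runs past the GENCODE start, chr17:35506018. The Foxo1 window held 1 core and 2 GC boxes. The Pou5f1 window held 0 cores and 1 GC box, and the window of a second RefSeq start of Pou5f1, not printed, held 1 core and 0 GC boxes. Of 32851 RefSeq promoter windows of the same length, 38.6% held at least 1 core and 32.7% at least 1 GC box. A match is a run of letters and not a measured binding site, and no match says nothing about whether a factor acts there.

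Reads on protein-coding genes, recovered from the steps between CPM values (reads per 1000000 reads on these genes), ranged from 11942104 to 25659895 per library, so that 1 read stood for 0.0390 to 0.0837 CPM. Intervals and floors from such counts cover counting error only. The labels do not say that the 2 libraries of a group came from separate cultures, so p-values measure only the spread between these libraries. The targeted transcript was checked first. Top1mt stood at 9.99 and 10.96 CPM in Top1mt KO libraries and 32.8 and 34.8 CPM in C57BL/6 wild type libraries (log2 fold change -1.60 ± 0.07, limma adjusted p = 1.48e-12). Hif1a stood at 618 and 593 CPM in libraries labelled Hif1a KO at 1% oxygen and 251 and 251 CPM in Hif1a wild type, and at 139 and 142 CPM against 116 and 118 CPM at 20%. A count over the whole gene does not check a deletion of exons, but the transcript ran against the label, so the wording "labelled Hif1a KO" is kept throughout. The summed feeder fibroblast genes, given in the next paragraph, were also highest in libraries labelled Hif1a KO at 1%. The part of feeder RNA in these Hif1a levels was not tested. In DBA/2 cells and in the Hif1a line, the sample numbers in the library names form separate runs at 1% and at 20% oxygen, and the labels do not say what these runs stand for.

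The summed levels of germ cell genes and of feeder genes differed between groups, and a difference in the mixture of cells would touch each value below. All 13 measured germ cell identity genes, a list that holds none of the 8 factors, exceeded 1 CPM on average in every group. They summed to 1999 ± 92.9 CPM in cells labelled Hif1a KO at 1% oxygen and 4521 ± 289 CPM in Hif1a wild type at 1% (SD, n = 2 each), and to 3603 ± 191 and 4274 ± 43.1 CPM at 20%. In Top1mt KO cells they summed to 2811 ± 43.2 CPM, against 3764 ± 38.5 CPM in C57BL/6 wild type. In DBA/2 cells they summed to 5515 ± 35.0 CPM at 1% and 5179 ± 138 CPM at 20%. The 16 feeder fibroblast genes were higher where the germ cell genes were lower in KO against wild type, at either oxygen level. Their sum was 54549 ± 1096 CPM in cells labelled Hif1a KO at 1% oxygen and 28865 ± 4848 CPM in Hif1a wild type at 1%, and 14295 ± 1710.5 and 9789 ± 610.3 CPM at 20%. It was 35328 ± 575 CPM in Top1mt KO and 19016 ± 22.5 CPM in C57BL/6 wild type cells, but only 5691 ± 407 CPM in DBA/2 cells at 1% and 6549.6 ± 1059 CPM at 20%. Collagen genes and Fn1 weigh most in this sum, and not every feeder gene moved with it. With low oxygen in Hif1a wild type 13 of 16 rose and 1 fell, and Pdgfrb had 73.9 and 90.1 CPM at 1% and 95.6 and 101 CPM at 20%. Between C57BL/6 and DBA/2 wild type at 1%, 13 were higher and 2 lower. The sums are thus no measured share of feeder RNA. Markers of other cells summed to less. The 9 testis somatic genes summed to 25.3 to 56.3 CPM per group. Of these, Cyp17a1, Insl3 and Fshr, of Leydig and Sertoli cells, stayed at or under 0.202 CPM in every library. Wt1 (8.59 to 29.3 CPM), Sox9 (6.70 to 19.9 CPM), Star (3.82 to 6.20 CPM) and Gata4 (0.513 to 5.40 CPM) were measured in every library. Amh reached 1.05 CPM and Hsd3b1 0.577 CPM at most. The 4 leukocyte genes summed to 17.7 to 34.4 CPM. In bulk RNA, fewer germ cells and less of a transcript per germ cell cannot be told apart, and the part of the feeders in the results below was not tested.

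**Figure D1:**
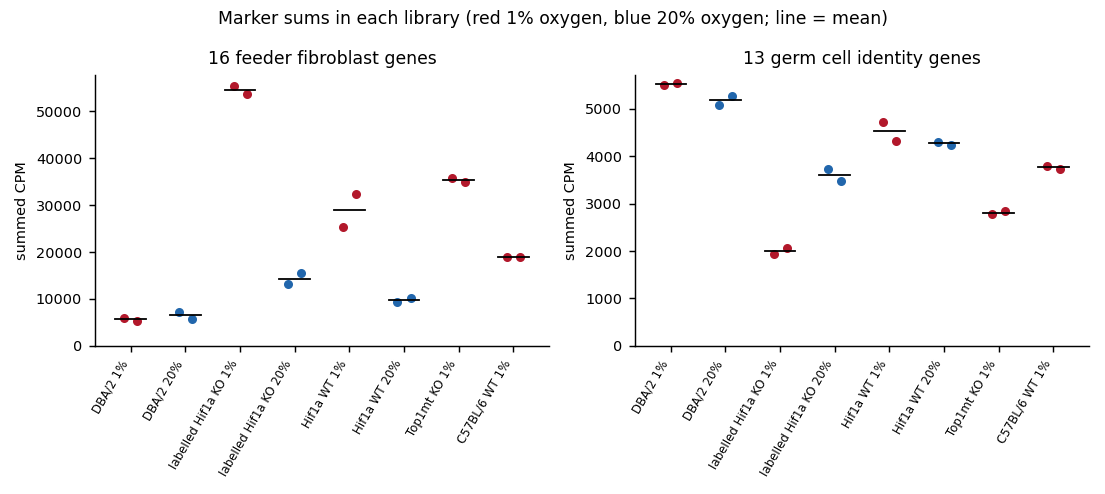
Summed CPM of 16 feeder fibroblast genes (left) and 13 germ cell identity genes (right) in each of the 16 libraries, as points by group with a line at the mean of 2. Libraries labelled Hif1a KO at 1% oxygen had the highest feeder sums and the lowest germ cell sums, and the DBA/2 libraries at both oxygen levels had the lowest feeder sums.

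Zbtb16 had the widest oxygen response of the zinc finger pair and ranged 12.7-fold between the lowest and the highest library. The gene lies at chr9:48654297-48836222 on the minus strand of GRCm38 (mm10), with 8 exons after merging of transcripts. In DBA/2 cells it stood at 165 and 178 CPM at 1% oxygen and 486 and 498 CPM at 20%. In cells labelled Hif1a KO it stood at 129 and 139.6 CPM at 1% and 345 and 345 CPM at 20%, and in Hif1a wild type at 279 and 282 CPM at 1% and 385 and 393 CPM at 20%. Every library at 1% lay below every library of its own line and genotype at 20%. In Top1mt KO cells Zbtb16 stood at 39.3 and 41.0 CPM, against 109 and 105 CPM in C57BL/6 wild type, both below all other groups. No neighbouring groups overlapped in the order of levels, which ran from Top1mt KO, C57BL/6 wild type, labelled Hif1a KO at 1%, DBA/2 at 1%, Hif1a wild type at 1%, labelled Hif1a KO at 20% and Hif1a wild type at 20% up to DBA/2 at 20%.

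On the log2(CPM + 1) scale, on which fold changes of low genes are understated, Zbtb16 fell with low oxygen in all 3 settings. The change was -1.52 ± 0.05 in DBA/2 cells (SE, limma adjusted p = 5.55e-15), -1.35 ± 0.05 in cells labelled Hif1a KO (adjusted p = 8.40e-15) and -0.47 ± 0.05 in Hif1a wild type (adjusted p = 1.77e-07). The response of Hif1a wild type was smaller than that of DBA/2 cells by a test of the difference itself (1.05 ± 0.07, adjusted p = 6.18e-10). Top1mt KO cells held 37.6% of the CPM of C57BL/6 wild type cells, the lowest ratio of the 8 genes in that comparison (log2 fold change -1.39 ± 0.05, adjusted p = 6.66e-14).

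Sall4, on the minus strand at chr2:168748332-168767943, fell by nearly the same amount with low oxygen in DBA/2 and Hif1a wild type cells. DBA/2 libraries held 192 and 191 CPM at 1% oxygen and 259 and 266 CPM at 20%. Hif1a wild type libraries held 138 and 138 CPM at 1% and 187 and 191 CPM at 20%. Libraries labelled Hif1a KO held 62.5 and 68.5 CPM at 1%, the lowest of any group, and 168 and 156 CPM at 20%. The log2 fold change was -0.45 ± 0.05 in DBA/2 cells, -0.45 ± 0.05 in Hif1a wild type and -1.29 ± 0.05 in cells labelled Hif1a KO, each called by limma, with the largest adjusted p of the 3 being 3.31e-07. The difference between the responses of Hif1a wild type and DBA/2 was 0.00 ± 0.07 (adjusted p = 0.996). Top1mt KO libraries held 125 and 125 CPM and C57BL/6 wild type libraries 188 and 189 CPM. By mean level the order upwards was labelled Hif1a KO at 1%, Top1mt KO, Hif1a wild type at 1%, labelled Hif1a KO at 20%, C57BL/6 wild type, Hif1a wild type at 20%, DBA/2 at 1% and DBA/2 at 20%, and among neighbours only C57BL/6 wild type and Hif1a wild type at 20% overlapped. Of the exons of Sall4, 9.50% of bases overlap Gm14261 on the opposite strand, and the sources do not say whether reads were counted by strand.

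**Figure D2:**
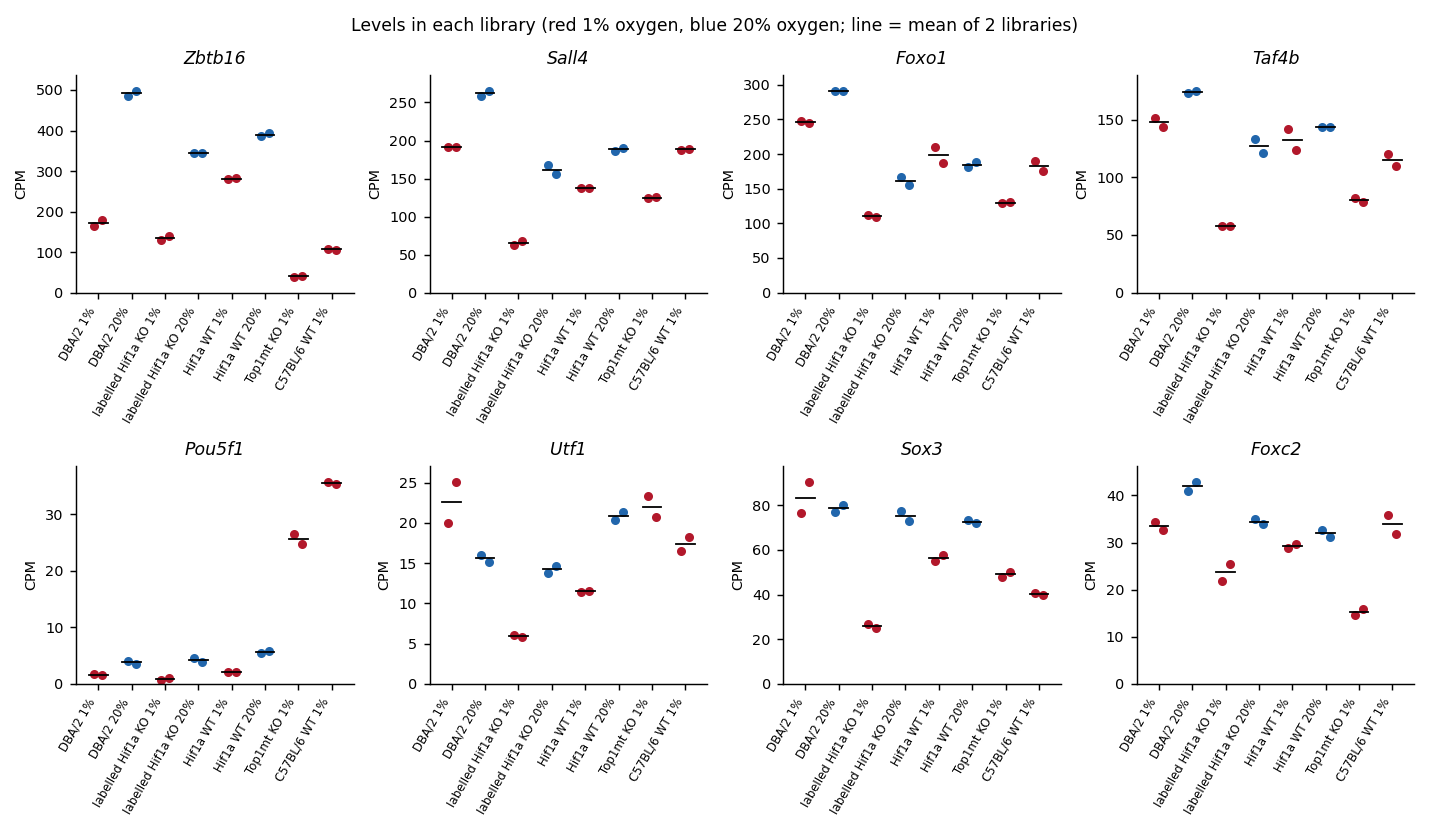
CPM of each of the 8 factors in every library, 1% oxygen in red and 20% in blue, with a line at the mean of 2 libraries; each panel starts at 0 and has its own scale. Zbtb16 and Sall4 were highest in DBA/2 cells at 20% oxygen, and Pou5f1 was highest in both C57BL/6 groups.

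Foxo1, the forkhead factor that PI3K and AKT signalling downstream of growth factors keeps out of the nucleus, varied least between libraries, 2.66-fold in all. It lies at chr3:52268336-52353221 on the plus strand. DBA/2 libraries held 248 and 245 CPM at 1% oxygen and 291 and 291 CPM at 20%, above all other groups. In cells labelled Hif1a KO it had 112 and 109.5 CPM at 1% and 166 and 156 CPM at 20%. In Hif1a wild type the 2 libraries at 1%, with 209.7 and 187 CPM, overlapped those at 20%, with 181 and 188 CPM. Foxo1 fell with low oxygen in DBA/2 cells (-0.24 ± 0.05, limma adjusted p = 7.95e-04) and in cells labelled Hif1a KO (-0.54 ± 0.05, adjusted p = 1.87e-08), and was 0.10 ± 0.05 in Hif1a wild type (adjusted p = 0.121). That last value was called as a rise of 0.19 under median-of-ratios scaling, in edgeR and in DESeq2, and as a rise of 0.18 without the second Hif1a wild type library at 1%. Top1mt KO cells had 129 and 130.4 CPM, against 189 and 176 CPM in C57BL/6 wild type (-0.49 ± 0.05, adjusted p = 2.47e-07). Upwards by mean, the order was labelled Hif1a KO at 1%, Top1mt KO, labelled Hif1a KO at 20%, then C57BL/6 wild type and Hif1a wild type at 20% and at 1%, which overlapped, and last DBA/2 at 1% and at 20%. An antisense gene, Gm20402, shares 7.78% of the exon bases of Foxo1.

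Foxc2, a single-exon forkhead gene at chr8:121116171-121118895 on the plus strand that marks a slowly cycling subset of spermatogonial stem cells in mouse testis, was lowest in Top1mt KO cells. It stood at 14.7 and 15.97 CPM there and at 35.9 and 31.9 CPM in C57BL/6 wild type (-1.09 ± 0.08, limma adjusted p = 1.32e-09). DBA/2 libraries held 34.3 and 32.7 CPM at 1% oxygen and 41.0 and 42.8 CPM at 20% (-0.31 ± 0.08, adjusted p = 0.00280). Its libraries at 1% lay below those at 20% in DBA/2 cells, and the same held in the Hif1a line for either label. Libraries labelled Hif1a KO held 21.9 and 25.5 CPM at 1% and 35.0 and 33.9 CPM at 20% (-0.52 ± 0.08, adjusted p = 7.04e-06). The call in cells labelled Hif1a KO was lost under median-of-ratios scaling (-0.17) and in DESeq2 (-0.16). Hif1a wild type libraries held 28.8 and 29.7 CPM at 1% and 32.7 and 31.2 CPM at 20% (-0.12 ± 0.08, adjusted p = 0.220). Above Top1mt KO the means ran from labelled Hif1a KO at 1% through Hif1a wild type at 1% and 20% to DBA/2 at 1%, C57BL/6 wild type and labelled Hif1a KO at 20%, the last 3 overlapping, and up to DBA/2 at 20%. Foxc1, the closest relative of Foxc2 and also a gene of mesenchymal cells, went the other way, with 13.7 CPM in cells labelled Hif1a KO at 1% against 5.48 CPM in Hif1a wild type and 7.32 CPM in Top1mt KO against 4.13 CPM in C57BL/6 wild type.

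Taf4b, which encodes a TFIID subunit that mice need to keep spermatogonia beyond the first rounds of spermatogenesis, was lowest in cells labelled Hif1a KO at 1% oxygen. The gene lies on chromosome 18 and has 15 merged exons. Libraries labelled Hif1a KO held 57.8 and 57.8 CPM at 1% oxygen and 133 and 121 CPM at 20%, and Hif1a wild type libraries held 141 and 123 CPM at 1% and 144 and 144 CPM at 20%. The DBA/2 cells had 152 and 143 CPM at 1% and 173 and 175 CPM at 20%. Top1mt KO libraries held 82.0 and 78.3 CPM, against 119.8 and 109.9 CPM in C57BL/6 wild type. Cells labelled Hif1a KO at 1% stood apart from the rest, with Top1mt KO and C57BL/6 wild type cells next. Labelled Hif1a KO at 20% overlapped Hif1a wild type at 1%, Hif1a wild type at 20% overlapped DBA/2 at 1%, and DBA/2 at 20% stood highest. Over the 16 libraries its log2(CPM + 1) was most like that of Piwil2, with a Pearson r of 0.993, and Piwil2 is one of the 13 germ cell identity genes. Taf4b fell with low oxygen in DBA/2 cells (-0.24 ± 0.06, limma adjusted p = 0.00346) and in cells labelled Hif1a KO (-1.12 ± 0.06, adjusted p = 3.40e-12). In Hif1a wild type it was -0.12 ± 0.06 (adjusted p = 0.1096), and -0.51 ± 0.06 in Top1mt KO against C57BL/6 wild type (adjusted p = 9.96e-07). Without the first Hif1a wild type library at 1% the Hif1a wild type value was called, at -0.22.

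Pou5f1, at chr17:35506018-35510772 on the plus strand, showed the widest range of the 8 genes, 50.6-fold between libraries. It was high in the C57BL/6 cells, with 26.5 and 24.8 CPM in Top1mt KO and 35.7 and 35.4 CPM in C57BL/6 wild type libraries. In the other lines it was low at both oxygen levels. DBA/2 libraries held 1.70 and 1.59 CPM at 1% oxygen and 4.004 and 3.58 CPM at 20%, from 34 and 35 reads at 1% and 86 and 84 reads at 20%. Libraries labelled Hif1a KO held 0.705 and 1.01 CPM at 1%, or 11 and 26 reads, and 4.61 and 3.90 CPM at 20%. Hif1a wild type libraries held 2.04 and 2.07 CPM at 1% and 5.51 and 5.78 CPM at 20%. In each line and genotype tested, both libraries at 1% lay below both at 20%, and among neighbouring groups only DBA/2 at 20% and labelled Hif1a KO at 20% overlapped. All these counts lie above the 3 reads that a count of 0 allows.

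Low oxygen took Pou5f1 to 43.3% of its 20% level in DBA/2 cells (log2 fold change -0.86 ± 0.12, limma adjusted p = 7.09e-06). The share left was 20.2% in cells labelled Hif1a KO (-1.50 ± 0.12, adjusted p = 8.25e-10) and 36.4% in Hif1a wild type (-1.12 ± 0.12, adjusted p = 3.14e-07). At 1% oxygen C57BL/6 wild type cells held 21.7 times the CPM of DBA/2 wild type cells (3.79 ± 0.12, adjusted p = 2.48e-14). The other genes of pluripotent cells were mixed. Esrrb stood at 21.4 and 20.9 CPM in C57BL/6 wild type and 21.7 and 23.2 CPM in DBA/2 cells at 1% (-0.08 ± 0.09, adjusted p = 0.434), and Dppa5a at 9.34 and 10.8 CPM in C57BL/6 wild type and 7.73 and 9.16 CPM in DBA/2 cells (0.23 ± 0.14, adjusted p = 0.151). Zfp42 was lower in C57BL/6 wild type, with 4.07 and 3.88 CPM against 13.5 and 13.2 CPM in DBA/2 cells (-1.53 ± 0.11, adjusted p = 1.05e-09). Nanog stood at 0.752 and 0.777 CPM in C57BL/6 wild type and 0.599 and 0.544 CPM in DBA/2 cells at 1%. Fgf4 did not exceed 0.220 CPM and Tdgf1 did not exceed 0.771 CPM in any of the 16 libraries. Sox2, the partner of POU5F1 in embryonic stem cells, was lower in C57BL/6 wild type too, at 0.940 and 1.40 CPM against 4.64 and 3.76 CPM in DBA/2 cells (-1.26 ± 0.16, adjusted p = 1.68e-06). The 8 pluripotent markers summed to 129 to 386 CPM per group, led by Klf4, which fibroblasts express as well and which stood at 74.2 to 372 CPM. An antisense gene, Gm19553, shares 14.1% of the exon bases of Pou5f1, and its part in the level was not tested.

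Utf1, at chr7:139943789-139945112 on the plus strand, encodes a chromatin-bound factor of pluripotent and early germ cells, and its response to oxygen differed in sign between lines. In DBA/2 cells Utf1 had 20.0 and 25.1 CPM at 1% oxygen and 16.02 and 15.2 CPM at 20%, so that both values at 1% were higher. Hif1a wild type libraries held 11.4 and 11.5 CPM at 1% and 20.4 and 21.3 CPM at 20%, so that both values at 1% were lower. Those labelled Hif1a KO held 6.03 and 5.88 CPM at 1% and 13.8 and 14.7 CPM at 20%. Utf1 rose by 0.50 ± 0.10 in DBA/2 cells (limma adjusted p = 4.25e-04) and changed by -0.81 ± 0.10 in Hif1a wild type (adjusted p = 2.42e-06) and -1.13 ± 0.10 in cells labelled Hif1a KO (adjusted p = 4.37e-09). The response of Hif1a wild type minus that of DBA/2 was -1.30 ± 0.15 (adjusted p = 8.68e-07), the largest such difference of the 8 genes. Top1mt KO libraries held 23.3 and 20.7 CPM, against 16.5 and 18.2 CPM in C57BL/6 wild type (0.32 ± 0.10, adjusted p = 0.0114). The groups ran upwards from labelled Hif1a KO at 1%, Hif1a wild type at 1%, labelled Hif1a KO at 20%, DBA/2 at 20% and C57BL/6 wild type to Hif1a wild type at 20%, Top1mt KO and DBA/2 at 1%, the last 3 overlapping. The rise in Top1mt KO was no longer called without the first Top1mt KO library (0.24) or the first C57BL/6 wild type library (0.26).

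Sox3, a single-exon gene at chrX:60891366-60893430 on the minus strand, was lowest in cells labelled Hif1a KO at 1% oxygen. Those libraries held 26.6 and 25.0 CPM, and those labelled Hif1a KO at 20% held 77.4 and 73.0 CPM. Hif1a wild type libraries held 55.2 and 57.9 CPM at 1% and 73.5 and 71.9 CPM at 20%. DBA/2 libraries held 76.3 and 90.4 CPM at 1% and 77.0 and 80.3 CPM at 20%. Upwards from labelled Hif1a KO at 1% came C57BL/6 wild type, Top1mt KO and Hif1a wild type at 1%, each apart from the next. Hif1a wild type at 20%, labelled Hif1a KO at 20%, DBA/2 at 20% and DBA/2 at 1% followed, each overlapping its neighbour. The log2 fold change with low oxygen was -1.51 ± 0.07 in cells labelled Hif1a KO (limma adjusted p = 1.98e-13), -0.36 ± 0.07 in Hif1a wild type (adjusted p = 2.34e-04) and 0.08 ± 0.07 in DBA/2 cells (adjusted p = 0.337). The DBA/2 value was called as a rise of 0.20 when the first library at 1% was left out. Top1mt KO libraries held 48.1 and 50.2 CPM, against 40.7 and 39.7 CPM in C57BL/6 wild type (0.28 ± 0.07, adjusted p = 0.00154).

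Per kilobase of merged exons, which makes levels comparable between genes, Zbtb16 led in DBA/2 cells at 20% oxygen with 93.2 CPM per kb. Sall4 followed with 47.4, Sox3 with 38.1, Taf4b with 33.8, Foxo1 with 33.6, Foxc2 with 15.4, Utf1 with 12.7 and Pou5f1 with 1.69 CPM per kb. At 1% oxygen the order in DBA/2 cells began with Sox3 at 40.4 CPM per kb, followed by Sall4 at 34.6 and Zbtb16 at 32.4. In Top1mt KO cells Zbtb16 stood in place 7 of 8, with 7.60 CPM per kb, and Sox3 led with 23.8. In C57BL/6 wild type cells Sall4 led with 34.1 and Pou5f1 reached 15.8 CPM per kb, above Utf1 with 14.2 and Foxc2 with 12.4.

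Counted together, the factors mostly fell at 1% oxygen. In DBA/2 cells 6 of 8 fell and 1, Utf1, rose, where 25.5% of the 14841 genes tested fell and 31.8% rose (57.4% called either way), so that the factors leaned down in a table that leaned slightly up. Their median log2 fold change was -0.28, beside 0.04 over all genes. In Hif1a wild type 5 of 8 fell and 0 rose, with 34.6% of all genes falling and 18.4% rising (53.1% either way), and the medians were -0.40 and -0.09. In cells labelled Hif1a KO all 8 fell, with 54.7% of all genes falling and 25.2% rising (79.9% either way), and the medians were -1.21 and -0.29. Zbtb16, Sall4 and Pou5f1 fell in all 3. The feeder sums moved with the last 2 responses, being higher at 1% in both, and not with that of DBA/2 cells, where the mean feeder sum was lower at 1%. The mean germ cell sum was lower at 1% only in cells labelled Hif1a KO, with 1999 CPM against 3603 CPM at 20%. It was higher at 1% in Hif1a wild type (4521 against 4274 CPM) and in DBA/2 cells (5515 against 5179 CPM). Of all genes called, 34.7% had risen in Hif1a wild type and 31.6% in cells labelled Hif1a KO. Under median-of-ratios scaling, which moved the median of all genes by 0.08 and 0.31 in these comparisons, the shares were 49.6% and 53.0%.

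**Figure D3:**
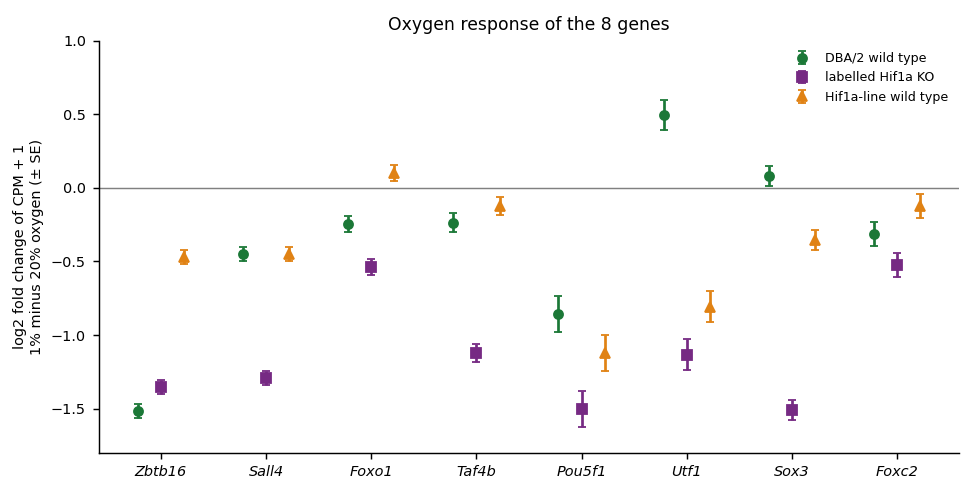
Log2 fold change of CPM + 1 between 1% and 20% oxygen for the 8 factors, as points with bars of 1 SE, in DBA/2 wild type (circles), cells labelled Hif1a KO (squares) and Hif1a wild type (triangles). Zbtb16, Sall4 and Pou5f1 lie below 0 in all 3, and Utf1 lies above 0 only in DBA/2 cells.

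The oxygen response was larger in cells labelled Hif1a KO than in Hif1a wild type for 6 of the 8 factors on the CPM scale. This difference of responses was called for 58% of all genes, negative for 39% and positive for 19%. It was -1.15 ± 0.10 for Sox3 and -1.001 ± 0.09 for Taf4b, each with an adjusted p under that of Foxo1 (-0.64 ± 0.08, limma adjusted p = 1.29e-06). It was -0.88 ± 0.07 for Zbtb16, -0.84 ± 0.07 for Sall4 and -0.40 ± 0.12 for Foxc2 (adjusted p = 0.00568). Pou5f1 (-0.38 ± 0.17, adjusted p = 0.0678) and Utf1 (-0.33 ± 0.15, adjusted p = 0.0638) were not called, but both were with a pseudocount of 0.25 in place of 1, at -0.68 and -0.38. The germ cell identity genes moved with these 6 genes, since all 13 of them also had a negative difference that was called. Foxc2 was not called under median-of-ratios scaling (-0.14), in edgeR (-0.17) or in DESeq2 (-0.13). Pou5f1 was called without the second library labelled Hif1a KO at 1% (-0.50) or at 20% (-0.48), and Utf1 without either DBA/2 library at 1% (-0.33). Of all genes called, 32.8% were positive, against 61.4% under median-of-ratios scaling, which moved the median by 0.23.

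Between the lines, the responses of Hif1a wild type and DBA/2 cells to low oxygen differed for 4 of 8 factors. The difference was positive for Zbtb16 and for Foxo1 (0.34 ± 0.08, limma adjusted p = 0.00121) and negative for Utf1 and for Sox3 (-0.44 ± 0.10, adjusted p = 0.00125), where 15.1% of all genes were called positive and 30.9% negative (46% either way). Under median-of-ratios scaling and in edgeR, Taf4b (0.24) and Foxc2 (0.31 to 0.33) were called positive too, and Taf4b also without the second Hif1a wild type library at 1% (0.21). That scaling moved the median of all genes by 0.12 and the positive share of all calls to 51.5%, against 32.9% on CPM. The 2 lines differ in strain, and their libraries at 1% also in the mark in the name. The mean feeder sum differed too, with 28865 CPM at 1% and 9789 CPM at 20% in Hif1a wild type and 5691 and 6549.6 CPM in DBA/2 cells. Strain, mark and feeder sum cannot be told apart here. At 20% oxygen 5 of 8 factors were lower in Hif1a wild type than in DBA/2 cells and 2 were higher, where 22.6% of all genes were lower and 26.4% higher (48.9% either way). Lower were Foxo1 (-0.66 ± 0.05), Sall4 (-0.47 ± 0.05), Foxc2 (-0.38 ± 0.08), Zbtb16 (-0.34 ± 0.05) and Taf4b (-0.27 ± 0.06, limma adjusted p = 0.00146, the largest of the 5). Higher were Pou5f1 (0.47 ± 0.12) and Utf1 (0.40 ± 0.10), while Sox3 was -0.11 ± 0.07 (adjusted p = 0.191).

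At 1% oxygen the cells labelled Hif1a KO had lower CPM than Hif1a wild type for all 8 factors, where 49.1% of all genes were lower and 28.3% higher (77.4% either way). The log2 fold changes were -1.18 for Taf4b, -1.10 for Sox3, -1.07 for Sall4 and -1.06 for Zbtb16. They were -0.84 for Utf1, -0.83 for Foxo1, -0.72 for Pou5f1 and -0.30 ± 0.08 for Foxc2, whose limma adjusted p of 0.00262 was the largest of the 8. The pseudocount of 1 understates the value of Pou5f1, which stood at 0.859 CPM against 2.06 CPM. By the ratio of mean CPM Pou5f1 was the lowest of the 8, at 41.8% of Hif1a wild type, with Taf4b next at 43.7%. The libraries of the 2 groups overlapped for none of the 8, but the share of all genes without overlap was not computed. The median was -0.95 for the factors, -0.21 for all genes and -1.23 for the 13 germ cell identity genes, all 13 of which fell. The Hif1a transcript itself was higher in the libraries labelled KO, so the direction of this comparison rests on the label. The call of Foxc2 was lost without the first library labelled Hif1a KO at 1% (-0.19) and under median-of-ratios scaling, edgeR and DESeq2 (-0.04 to -0.01). Of all genes called, 36.6% were higher on CPM and 54.2% under median-of-ratios scaling, which moved the median by 0.23.

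At 20% oxygen the same comparison gave smaller differences. By limma 5 of 8 factors were lower in cells labelled Hif1a KO, where 9.55% of all genes were lower and 12.9% higher (22.4% either way). Utf1 was lower by the largest amount (-0.52 ± 0.10, adjusted p = 0.00140), followed by Sall4 (-0.22 ± 0.05, adjusted p = 0.00315), Foxo1 (-0.20 ± 0.05) and Zbtb16 (-0.17 ± 0.05). Taf4b lay at the threshold (-0.18 ± 0.06, adjusted p = 0.0488), with Pou5f1 just outside it (-0.34 ± 0.12, adjusted p = 0.0505). Sox3 was 0.05 ± 0.07 and Foxc2 0.11 ± 0.08. The count rested on single libraries. It was 1 without the second library labelled Hif1a KO at 20%, 3 without the first and 2 without the second Hif1a wild type library at 20%. Zbtb16 was not called without any 1 of these 4 libraries (-0.19 to -0.16). Sall4 (-0.17) and Foxo1 (-0.15) were not called without the second library labelled Hif1a KO, nor Foxo1 (-0.17) without the second Hif1a wild type library. Taf4b was not called under most alternatives, edgeR and DESeq2 among them (-0.16 and -0.17). Of the 13 germ cell identity genes 11 were also lower, and of the 16 feeder genes 13 were higher.

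Top1mt KO cells at 1% oxygen differed from C57BL/6 wild type in all 8 factors. Of these 6 fell, where 33.2% of all genes fell, and 2, Utf1 and Sox3, rose, where 25.2% of all genes rose (58.4% called either way). Zbtb16 and Foxc2 fell most, followed by Sall4 (-0.59 ± 0.05), Taf4b, Foxo1 and Pou5f1 (-0.45 ± 0.12, limma adjusted p = 0.00352). The libraries of the 2 groups overlapped for none of the 8 genes, but the share of all genes without overlap was not computed. The median was -0.50 for the factors, -0.04 for all genes and -0.43 for the germ cell identity genes, 12 of 13 of which fell. The receptor genes of the GDNF pathway also fell, with Gfra1 at 57.03 CPM in Top1mt KO and 288 CPM in C57BL/6 wild type cells (-2.32 ± 0.07) and Ret at 128 and 341 CPM (-1.41 ± 0.04). Etv5, a transcription factor induced by GDNF, had 93.0 CPM in Top1mt KO and 266 CPM in C57BL/6 wild type cells (-1.50 ± 0.06, adjusted p = 5.23e-13).

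At 1% oxygen C57BL/6 wild type cells differed from DBA/2 wild type cells in 6 of 8 factors. Only Pou5f1 was higher, where 28.9% of all genes were higher, and 5 were lower, where 32.9% were (61.8% either way). Sox3 was -1.03 ± 0.07, Zbtb16 -0.68 ± 0.05, Foxo1 -0.43 ± 0.05, Taf4b -0.36 ± 0.06 and Utf1 -0.35 ± 0.10 (limma adjusted p = 0.00648, the largest of the 5). Sall4 was -0.02 ± 0.05 and Foxc2 0.01 ± 0.08, neither called. The call of Utf1 was lost without the second DBA/2 library at 1% (-0.19) or the first C57BL/6 wild type library (-0.28). Strain, line and the mean feeder sum, 19016 against 5691 CPM, differed together here and cannot be told apart.

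Levels were also set against the germ cell identity genes of each library, by dividing CPM by their sum before the logarithm. On this scale the median of all genes moved by 1.05 in the comparison of cells labelled Hif1a KO with Hif1a wild type at 1% oxygen, from -0.21 on the CPM scale to 0.84. There 0 of 8 factors were lower, with 0.553% of all genes lower, and Foxo1 (0.34 ± 0.05) and Foxc2 (0.84 ± 0.08) were higher, with 84.1% of all genes higher. The other 6 factors lay between -0.06 for Pou5f1 and 0.21 for Utf1 and were not called by limma. At 20% oxygen Sox3 (0.29 ± 0.08) and Foxc2 (0.35 ± 0.08) were higher in cells labelled Hif1a KO and none was lower, where 41.8% of all genes were higher and 0.337% lower. The difference of responses between cells labelled Hif1a KO and Hif1a wild type had no negative call among the 8, with 0.418% of all genes negative, and was positive for Foxo1, Utf1 and Foxc2 (0.28, 0.50 and 0.50), with 75% of all genes positive.

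The oxygen responses kept more of their calls on the germ cell scale. That scaling moved the median of all genes by only -0.08 in DBA/2 cells and -0.07 in Hif1a wild type, so calls there had little room to change. In cells labelled Hif1a KO it moved the median by 0.76. The same 6 genes fell and Utf1 rose in DBA/2 cells, at 29.2% of all genes falling and 21.1% rising. In Hif1a wild type 6 fell, with Taf4b joining (-0.20 ± 0.06, limma adjusted p = 0.00879), at 40.4% of all genes falling. In cells labelled Hif1a KO 6 fell, at 10.7% of all genes falling, while Foxo1 (0.31 ± 0.05) and Foxc2 (0.30 ± 0.08) rose, at 64.8% of all genes rising. Zbtb16, Sall4, Pou5f1 and Taf4b fell with low oxygen in all 3 on this scale. Zbtb16 changed by -1.61 ± 0.06 in DBA/2 cells, -0.51 ± 0.06 in cells labelled Hif1a KO and -0.55 ± 0.06 in Hif1a wild type. Pou5f1 changed by -0.84 ± 0.12, -1.08 ± 0.12 and -1.15 ± 0.12 in the same order of groups. The CPM of Zbtb16 as a share of the summed germ cell identity genes was 3.11% ± 0.150 in DBA/2 cells at 1% oxygen and 9.50% ± 0.0867 at 20% (SD, n = 2 each). The share was 6.73% ± 0.0494 at 1% and 9.59% ± 0.525 at 20% in cells labelled Hif1a KO. It was 6.22% ± 0.447 at 1% and 9.10% ± 0.214 at 20% in Hif1a wild type. The 3 values at 20% thus lay close together.

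In the Top1mt comparison on the germ cell scale, Zbtb16 (-0.98 ± 0.06), Foxc2 (-0.70 ± 0.08) and Sall4 (-0.17 ± 0.05) still fell, at 8.25% of all genes falling, and Sox3 (0.70 ± 0.08) and Utf1 (0.73 ± 0.12) rose, at 61.4% rising. Foxo1 (-0.07), Taf4b (-0.10) and Pou5f1 (-0.05) were no longer called. Between Hif1a wild type and DBA/2 cells, the difference of responses stayed positive for Zbtb16 (1.06) and Foxo1 (0.35) and negative for Utf1 (-1.28) and Sox3 (-0.42), with 12.6% of all genes positive and 24.7% negative. At 20% oxygen 2 factors were higher and 2 lower in Hif1a wild type than in DBA/2 cells, with 54.3% of all genes higher and 6.97% lower. Between strains at 1% oxygen Pou5f1 remained higher in C57BL/6 wild type (4.14 ± 0.12), and Sox3 (-0.49 ± 0.08) and Zbtb16 (-0.13 ± 0.06) remained lower. Sall4 (0.52), Foxc2 (0.54) and Taf4b (0.19) were higher on this scale, so that Taf4b changed direction. For these strains 71.2% of all genes were higher and 5.13% lower on this scale.

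**Figure D4:**
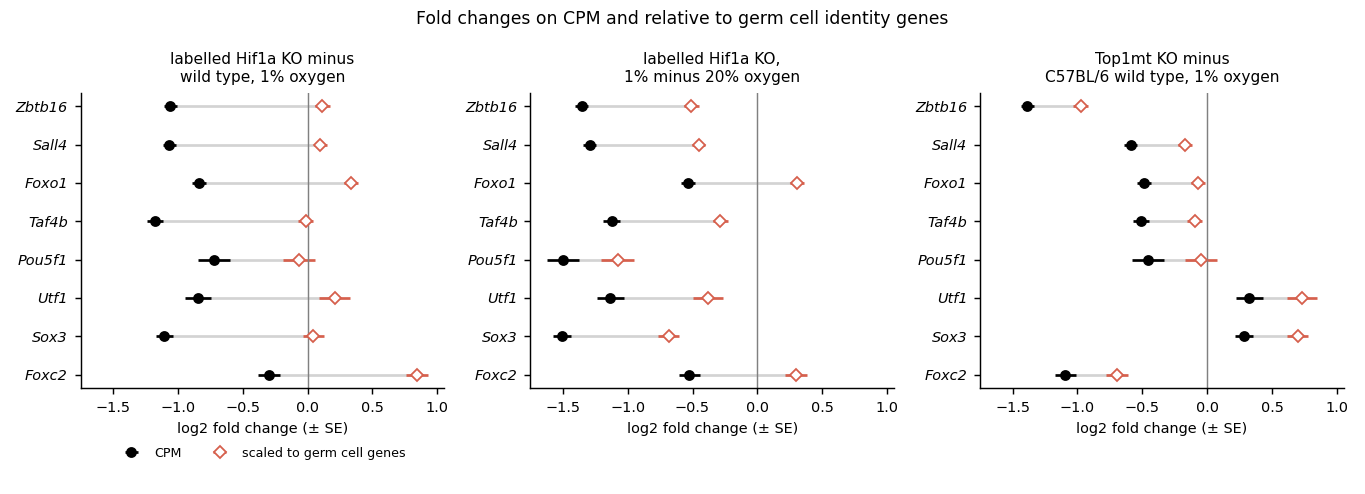
Log2 fold changes (± SE) of the 8 factors on CPM (filled circles) and after scaling to summed germ cell identity genes (open diamonds), for labelled Hif1a KO minus Hif1a wild type at 1% oxygen, 1% minus 20% oxygen in cells labelled Hif1a KO, and Top1mt KO minus C57BL/6 wild type. In the first panel all 8 filled points lie below 0 and the open points lie near or above 0, whereas in the last panel Zbtb16 and Foxc2 stay well below 0 on both scales.

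Sall4 lies on chromosome 2, whose genes shifted as a group in both comparisons that involve C57BL/6 wild type cells. Genes on chromosome 2 had a median log2 fold change of -0.46 between Top1mt KO and C57BL/6 wild type cells, and those on chromosome 19 one of -0.47, while chromosome 6 had one of -0.13 and the other 17 had medians of -0.12 to 0.11. Set against the median of its chromosome, Sall4 was -0.13 in that comparison, Zbtb16 -1.37 and Foxc2 -1.09. Between C57BL/6 and DBA/2 wild type at 1% oxygen the medians were 0.32 on chromosome 2, 0.36 on chromosome 6 and 0.39 on chromosome 19, against -0.19 to -0.03 on the others, and Sall4 was -0.34 relative to its chromosome. Taf4, the widely expressed relative of Taf4b, lies on chromosome 2 as well and had 39.7 CPM in Top1mt KO and 75.4 CPM in C57BL/6 wild type cells (-0.91 ± 0.06). Chromosomes 2, 6 and 19 were singled out after their values were seen. The copy number of these chromosomes was not measured, and its part in the level of Sall4 was not tested.

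**Figure D5:**
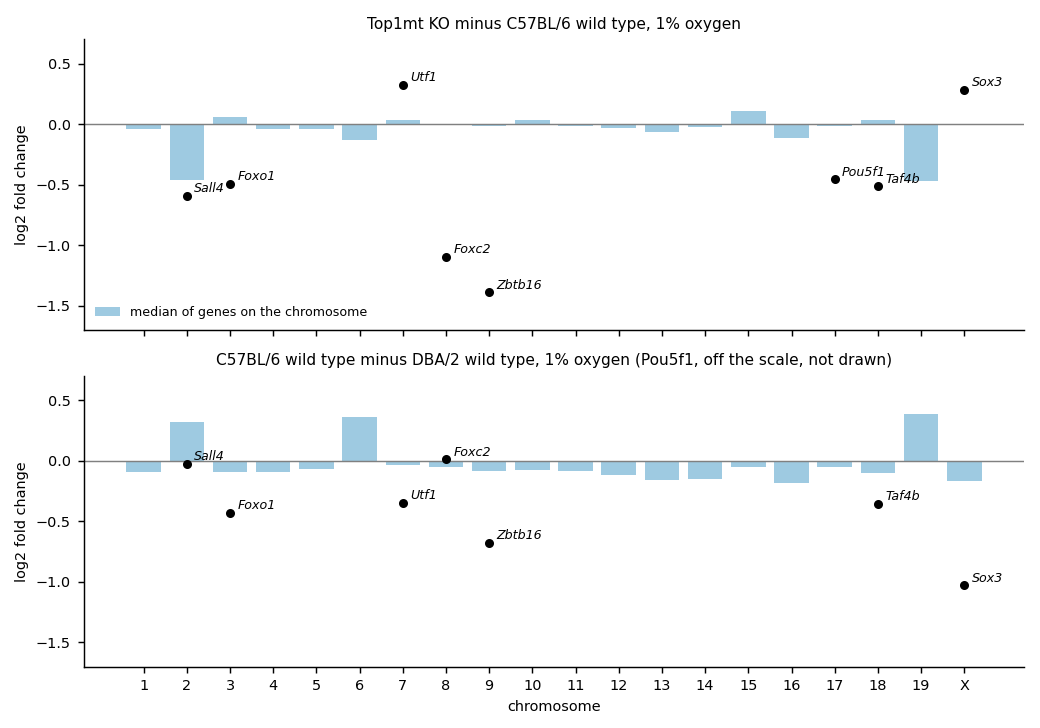
Median log2 fold change of the genes on each chromosome (bars) and the value of each factor at its chromosome (points), for Top1mt KO minus C57BL/6 wild type (top) and C57BL/6 minus DBA/2 wild type (bottom), both at 1% oxygen. The medians of chromosomes 2 and 19 are low in the top panel and high in the bottom panel, and Pou5f1, at 3.79, lies off the scale of the bottom panel.

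Among themselves, the factors were most alike over the 16 libraries for Foxo1 and Taf4b (Pearson r of 0.92 on log2(CPM + 1)), Sall4 and Taf4b (0.92), Sox3 and Taf4b (0.87) and Sall4 and Foxo1 (0.87). Zbtb16 was most like Foxc2 (0.82) and ran against Pou5f1 (-0.54). Utf1 was most like Sall4 (0.72). These values describe 16 libraries in 8 groups that share the mixture of germ cells and feeders, and they carry no test. Among genes averaging at least 5 CPM, those most like each factor and reported here were Trim9 (0.990), Med13l (0.985), Spocd1 (0.979) for Zbtb16, and Tcf7 (0.987), Cdk2 (0.987) for Sall4. They were Fgfr1op (0.984), Foxj3 (0.981), Haus6 (0.981) for Foxo1, and Piwil2 (0.993), Ppat (0.992), Tnrc6a (0.990) for Taf4b. For Sox3 they were Jpt1 (0.981), Mrto4 (0.971), 1700030J22Rik (0.970), and for Foxc2 Tcl1 (0.962), Slc25a45 (0.944), Il17rd (0.943). For Utf1 they were Sult4a1 (0.976), Adprh (0.962), and for Pou5f1 Zfp956 (0.956), Bpgm (0.948), Atp6v1f (0.947), the last 3 all on chromosome 6.

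Other genes of undifferentiated spermatogonia, a list of 21, fell with low oxygen in most cases, as most of the factors did. With low oxygen 15 of 21 fell and 3 rose in DBA/2 cells, all 21 fell in cells labelled Hif1a KO, and 17 fell in Hif1a wild type. The medians were -0.56, -1.25 and -0.44, beside 0.04, -0.29 and -0.09 over all genes in the same order. Of all genes 25.5% fell and 31.8% rose in DBA/2 cells, 54.7% fell in cells labelled Hif1a KO and 34.6% fell in Hif1a wild type. In DBA/2 cells the GDNF receptor gene Gfra1 had 109 CPM at 1% and 251 CPM at 20% (-1.19 ± 0.07), and its partner Ret had 197 and 376 CPM (-0.93 ± 0.04). Bcl6b, a GDNF-induced repressor, had 110.1 CPM at 1% and 265 CPM at 20% (-1.26 ± 0.07), and T (brachyury) had 3.37 and 18.9 CPM (-2.18 ± 0.14). In cells labelled Hif1a KO at 1%, 19 of 21 were lower than in Hif1a wild type, and in Top1mt KO cells 15 were lower and 1 higher than in C57BL/6 wild type. At 20% oxygen 3 were lower and 1 higher in cells labelled Hif1a KO. The medians were -0.78 at 1% and -0.06 at 20% for the labelled Hif1a KO and -0.46 for Top1mt KO, beside -0.21, -0.03 and -0.04 over all genes. Of all genes 49.1% were lower in the labelled Hif1a KO at 1% and 9.55% at 20%, and in Top1mt KO 33.2% were lower and 25.2% higher. The germ cell identity genes were lower in these 3 comparisons as well.

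Genes of the differentiating side, a list of 12, split in DBA/2 cells, where 6 rose and 3 fell at 1% oxygen, with a median of 0.11, beside 0.04 over all genes, of which 31.8% rose and 25.5% fell. Stra8, which retinoic acid induces, had 161 CPM at 1% and 86.9 CPM at 20% in those cells (0.88 ± 0.08), and Dmrtb1 had 14.3 and 5.12 CPM (1.31 ± 0.11). Kit, the receptor that marks differentiating spermatogonia, was -0.15 ± 0.06 in DBA/2 cells, -1.67 ± 0.06 in cells labelled Hif1a KO and -0.48 ± 0.06 in Hif1a wild type. In cells labelled Hif1a KO 9 of 12 fell and 1 rose at 1%, and in Hif1a wild type 5 fell and 2 rose, with medians of -0.79 and -0.18. Beside these, 54.7% of all genes fell in cells labelled Hif1a KO, with a median of -0.29, and 34.6% fell in Hif1a wild type, with a median of -0.09, so that the share in Hif1a wild type was near that of all genes. In Top1mt KO cells 5 were higher and 5 lower than in C57BL/6 wild type, with a median of 0.11, beside -0.04 over all genes, of which 25.2% were higher and 33.2% lower.

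Relatives and partners of the factors, of which 12 of 13 were in the table, were mixed. With low oxygen 3 of the 12 rose and 2 fell in DBA/2 cells, 2 rose and 7 fell in cells labelled Hif1a KO, and 3 rose and 5 fell in Hif1a wild type, with medians of 0.04, -0.52 and 0.06. Of all genes 31.8% rose and 25.5% fell in DBA/2 cells, 25.2% rose and 54.7% fell in cells labelled Hif1a KO, and 18.4% rose and 34.6% fell in Hif1a wild type, with medians of 0.04, -0.29 and -0.09. Sall1, a paralog of Sall4, fell in each, with changes of -1.02 ± 0.08, -1.90 ± 0.08 and -1.37 ± 0.08 in the same order. Foxo3 was -0.49 ± 0.05 in DBA/2 cells and was not called in the other 2. Ddit4 (REDD1), a target of hypoxia-inducible factor that restrains mTOR signalling and that ZBTB16 is known to activate in mouse spermatogonia, rose while Zbtb16 fell. It had 183 CPM at 1% and 55.6 CPM at 20% in DBA/2 cells (1.71 ± 0.07), 142 and 68.7 CPM in cells labelled Hif1a KO (1.04 ± 0.07) and 71.2 and 45.9 CPM in Hif1a wild type (0.62 ± 0.07). In Top1mt KO cells it had 185 CPM, against 132 CPM in C57BL/6 wild type (0.49 ± 0.07, limma adjusted p = 5.33e-06).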

How the data were processed

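Polyadenylated RNA of 16 libraries in 8 groups of 2 was sequenced with a stranded TruSeq protocol from 200 ng of RNA, per the labels' protocols. The deposited table gives CPM for 21924 protein-coding genes, computed by the authors, and each column sums to 1000000. The submitters' processing notes name cutadapt 1.16, STAR 2.6.0c, HTSeq 0.11.2, DESeq2 1.22.2 and the build mm10, without saying which step each served. The annotation and the strand setting are not given in the sources used here. All values were whole multiples of 1 read within a tolerance of 0.01 (100% in every library). On these reads edgeR called 3165 to 11059 genes over the 10 comparisons, where limma on CPM called 3329 to 11865.

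Genes with at least 1 CPM in at least 2 libraries (14841) were fitted on log2(CPM + 1) with limma 3.58.1 in R 4.3.3, with 1 mean per group over all 16 libraries and a trended prior. Genes were called at a Benjamini-Hochberg adjusted p of 0.05 over all genes tested, with no limit on the fold. Alternatives were edgeR 4.0.16 and DESeq2 1.42.0 on the recovered reads, median-of-ratios scaling, no filter, a pseudocount of 0.25, only the groups compared, a replicate block, each library left out in turn, and scaling to germ cell identity genes. Gene positions and overlaps are from the GENCODE M21 annotation of GRCm38.

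The 8 factors, the gene lists and the markers were chosen with earlier results of these data known. The genes named were the 8 factors, the targeted genes, for each factor the 3 genes with the highest Pearson r over the 16 libraries (some of which are not reported here), and from each list the 4 genes with the smallest adjusted p in a comparison. Other genes named from the lists (Foxc1, Kit, Foxo3 and the pluripotent markers among them) were chosen after their values were seen.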

Additional observations from a re-analysis of the deposited data

Results flagged for a closer look

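The response to low oxygen differed between the genotypes of the Hif1a line, by an interaction term in limma, for 6 of the 8 factors, with 58% of all genes tested called either way. The response in cells labelled Hif1a KO minus that in Hif1a wild type was -1.15 ± 0.10 for Sox3 (adjusted p = 2.99e-08). For Taf4b it was -1.001 ± 0.09 (limma adjusted p = 5.14e-08). For Zbtb16 it was -0.88 ± 0.07 (limma adjusted p = 1.75e-08), and for Sall4 -0.84 ± 0.07 (adjusted p = 2.60e-08). Foxo1 had -0.64 ± 0.08 (limma adjusted p = 1.29e-06) and Foxc2 -0.40 ± 0.12 (adjusted p = 0.00568). In each of these 6 genes both libraries labelled Hif1a KO at 1% lay below both at 20%. The same held in these cells for Pou5f1 and Utf1, whose difference of responses was not called, so it does not set the 6 apart. In those cells 54.7% of all genes fell, and the share of all genes without overlap was not computed. On the scale of germ cell genes no gene of the 6 kept a negative call, where 0.418% of all genes were negative and 75% positive.

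The response also differed between Hif1a wild type and DBA/2 cells for 4 factors, with 46% of all genes called either way. Zbtb16 differed by 1.05 ± 0.07, since it fell less in Hif1a wild type. Foxo1 differed by 0.34 ± 0.08, with a fall in DBA/2 cells only passing the test. Utf1 differed by -1.30 ± 0.15 and had opposite directions in the lines, lower at 1% in 2 of 2 Hif1a wild type libraries and higher at 1% in 2 of 2 DBA/2 libraries. Sox3 differed by -0.44 ± 0.10 and was lower at 1% in 2 of 2 Hif1a wild type libraries. Strain, line, the mark in the names at 1% oxygen and the change of the mean feeder sum differ together between these cells and cannot be told apart.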

How the results depend on the processing

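Of the 80 log2 fold changes (8 factors in 10 comparisons), no called value changed direction under any alternative on CPM or recovered reads, whereas the 2 scalings to germ cell genes turned directions round. Scaling to the sum shifts every gene of a comparison by nearly the same amount (1.05 in the median for the labelled Hif1a KO at 1%). It turned the direction of 22 values that were called on CPM, after it or both, and ended 10 other calls. Some of the 22 were not called on CPM and many not after it. Values called on neither scale were left out of this count, and some of them turned too. These were Sox3 with low oxygen in DBA/2 cells (0.08 to -0.01) and for Hif1a wild type against DBA/2 at 20% (-0.11 to 0.16), and Pou5f1 for the difference of responses between genotypes (-0.38 to 0.07). Scaling to the geometric mean, chosen after seeing the data, turned 21 by the same count and ended 11 others. Each pair below gives the sum first and the geometric mean after it. With low oxygen in cells labelled Hif1a KO, Foxo1 was 0.31 and 0.36 and Foxc2 0.30 and 0.35. For the labelled Hif1a KO against Hif1a wild type at 1% oxygen, Zbtb16 was 0.11 and 0.12, Sall4 0.10 and 0.10, Foxo1 0.34 and 0.34, Utf1 0.21 and 0.21, Sox3 0.043 and 0.048, and Foxc2 0.84 and 0.85. At 20% oxygen Zbtb16 was 0.074 and 0.073, Sall4 0.024 and 0.023, Foxo1 0.0501 and 0.0497, and Taf4b 0.068 and 0.067. For the difference of responses, Zbtb16 was 0.0402 and 0.046, Sall4 0.076 and 0.082, Foxo1 0.28 and 0.29, Utf1 0.50 and 0.50, and Foxc2 0.50 and 0.50. Taf4b was 0.0035 under the sum alone for Hif1a wild type against DBA/2 at 20%. For C57BL/6 against DBA/2 wild type, Sall4 was 0.52 and 0.42, Foxo1 0.12 and 0.019, Taf4b 0.19 and 0.089, and Utf1 0.17 and 0.079. The cause was not tested.

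Under both germ cell scalings the factors called numbered 2 for the labelled Hif1a KO at 1% and 2 at 20%, 5 for Top1mt KO, 3 for the difference of responses, and 4 for Hif1a wild type against DBA/2 at 20%. Under scaling to the sum, 84.1% of all genes were higher and 0.553% lower in the first of these comparisons, and 41.8% and 0.337% in the second. In the same order of higher and lower, the shares were 61.4% and 8.25% for Top1mt KO, 75% and 0.418% for the difference of responses, and 54.3% and 6.97% for the lines. When 1 library was left out at a time, the count ran from 1 to 6 for the labelled Hif1a KO at 20%, 7 to 8 for the same at 1%, 8 to 8 for its oxygen response, 5 to 6 for that of Hif1a wild type and 7 to 8 for that of DBA/2. It ran from 7 to 8 for Top1mt KO, 6 to 7 and 4 to 5 for the differences of responses between genotypes and lines, 7 to 7 for the lines at 20% and 5 to 6 for the strains. For the labelled Hif1a KO at 20% the genes called in the whole table numbered 3329, but 6257 and 6107 under the germ cell scalings, and 1574 without the second library labelled Hif1a KO, 1508 without the first and 1960.0 without the second Hif1a wild type library. Libraries that share a replicate number deviated from their group means with correlations of -0.06 to 0.27 between groups of the Hif1a line, 0.15 in DBA/2 and 0.07 in C57BL/6 cells, so the numbers were not taken as pairs. With the replicate number as a block all 80 values kept their direction and their call, with 8 factors called for the labelled Hif1a KO at 1% oxygen.

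With 2 libraries a group the spread rests on all 8 groups together. Pou5f1 had as few as 11 reads in a library, and its fold changes had the widest standard errors of the 8 factors.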
